A study of Mus musculus with 13 samples.

Results

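Complement transcripts were followed through the spontaneous immortalization of mouse embryonic fibroblasts (MEFs). Members were chosen by symbol: the C1q chains C1qa, C1qb and C1qc, the C1 proteases C1ra and C1s1, the opsonin precursors C3 and C4b, factor B (Cfb) and the C1 inhibitor (Serping1), 9 of the 55487 genes in the deposited counts. All 9 passed the filter on low counts in each genotype. RNA came from primary MEFs and from the immortalized lines grown out of them, in 13 libraries. The 6 wild-type (WT) libraries are clones 3, 4 and 5 in both states, and the paper takes each clone from a separate embryo. The 7 libraries labelled Prkd3-/- are primary clones 13, 14 and 15 and immortalized lines 13, 13a, 14 and 15, and the labels do not say how 13a relates to 13. No embryonic age or strain was given in the labels. All cells were grown in high-glucose DMEM with 10% fetal calf serum. The serum was raised to 20% once cultures senesced, and per the paper the immortalized lines were then expanded in 10% again. State and serum history therefore cannot be told apart. Each line grew out of colonies that survived senescence.

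Totals ran from 35273408 to 100441756 counts per library, and 3 counts corresponded to between 0.0277 and 0.0842 CPM, where each library was scaled by its TMM factor among all 13. These values cover counting error only. The sum of 10 fibroblast markers was between 30907 and 94971 CPM in every library. That sum was mainly Col1a1, Col1a2, Col3a1, Vim and Fn1, and less abundant markers varied widely among lines. Dcn ran from 0.382 CPM in Prkd3-/- line 13 to 456 CPM in WT line 5. Thy1 ran from 4.85 CPM in Prkd3-/- line 13 to 895 CPM in line 13a. The gene Prkd3 was still counted at 33.6 to 61.0 CPM in the libraries labelled Prkd3-/- and at 69.2 to 93.8 CPM in WT, and counts per gene do not show the loss of an exon, so the genotype rests on the label. The WT primary libraries were much more alike (chi-square per gene 5.25 to 12.4 between pairs) than the WT lines (409 to 644).

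Complement is a set of secreted proteins that tag targets and recruit phagocytes. In the classical pathway C1q, built from A, B and C chains, binds its target and activates the serine proteases C1r and C1s, which cleave C4 and C2 and so form the enzyme that cleaves C3. Factor B carries the protease of the alternative pathway, and the C1 inhibitor inactivates C1r and C1s. C1q is made mainly by macrophages and related myeloid cells, whereas fibroblasts can make the proteases, C3, C4, factor B and the C1 inhibitor.

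The C1q genes lie in a cluster on chromosome 4 of GRCm38, each on the minus strand. C1qa spans chr4:136895917-136898803, C1qc chr4:136889804-136893065 and C1qb chr4:136880129-136886187, with gaps of 2851 and 3616 bases between them. The proteases are neighbours on chromosome 6, C1ra at chr6:124512405-124523443 on the plus strand and C1s1 at chr6:124530345-124542359 on the minus strand, 6901 bases apart. On chromosome 17 are C4b (chr17:34728380-34743882), Cfb (chr17:34856374-34862518) and C3 (chr17:57203970-57228136), and Serping1 is at chr2:84765387-84775444, these 4 on the minus strand. Upstream sequence is shown for C1qb and C1qc, whose transcripts moved together, and for C1s1 and C3, which moved otherwise. The windows are from RefSeq (GRCm38.p6), written 5′ to 3′ on the gene's strand, and hold no annotated exon. They are chr4:136886201-136886450 for C1qb, chr4:136893066-136893164 for C1qc, chr6:124542360-124542609 for C1s1 and chr17:57228137-57228386 for C3. Capitals mark GAGGAA, a longer sequence around the GGAA core that PU.1 and other Ets factors bind, on either strand.
C1qb: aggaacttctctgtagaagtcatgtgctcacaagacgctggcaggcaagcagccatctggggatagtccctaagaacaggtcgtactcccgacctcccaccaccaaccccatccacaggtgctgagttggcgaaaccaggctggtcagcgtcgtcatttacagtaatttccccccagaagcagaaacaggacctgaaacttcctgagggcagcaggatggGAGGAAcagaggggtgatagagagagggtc
C1qc: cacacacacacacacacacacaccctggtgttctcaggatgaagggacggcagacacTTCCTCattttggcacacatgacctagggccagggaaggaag
C1s1: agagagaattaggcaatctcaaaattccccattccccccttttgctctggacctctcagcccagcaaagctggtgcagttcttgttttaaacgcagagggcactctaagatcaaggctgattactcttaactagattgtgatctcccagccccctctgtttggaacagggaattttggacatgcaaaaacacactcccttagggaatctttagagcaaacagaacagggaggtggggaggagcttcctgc
C3: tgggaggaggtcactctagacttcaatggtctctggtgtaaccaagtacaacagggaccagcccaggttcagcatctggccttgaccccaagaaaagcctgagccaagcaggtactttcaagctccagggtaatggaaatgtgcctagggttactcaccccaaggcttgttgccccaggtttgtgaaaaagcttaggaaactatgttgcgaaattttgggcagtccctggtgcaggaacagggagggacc
GAGGAA stood 25 bases before the C1qb start site on the gene's strand. In the C1qc window it stood on the opposite strand, where it reads TTCCTC. It was found in 23.3% of 32851 promoter windows of 250 bases, and in 9.91% of windows cut to the farthest 99 bases as for C1qc. Neither the C1s1 nor the C3 window held GAGGAA, though all 4 windows hold the shorter GGAA core on at least 1 strand. None of the 4 held TATAAA (12.4% of windows of 250 bases), an interferon response element (GAAANN in tandem, 2.98%) or an NF-kB site (7.25%). Both strands were searched, and the motifs do not overlap each other in these windows. A match is a description of letters and not a binding site. Promoters of C1qa, C4b, Cfb and Serping1 are named only, and that of C1ra overlapped an annotated exon and is not printed.

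C1q transcripts were lower in all 3 WT lines than in all 3 WT primary cultures. C1qa, the A chain, stood at 73.7, 73.0 and 63.5 CPM in primary clones 3, 4 and 5 and at 4.11, 3.69 and 4.10 CPM in the lines of the same numbers. The states did not overlap, and each line was between 15.5- and 19.8-fold below its own primary culture. The Log2FC was -4.14 (SE 0.11, edgeR quasi-likelihood adjusted p = 0.000254). C1qb, the B chain, fell from 81.5, 77.9 and 69.4 CPM to 3.50, 3.69 and 6.04 CPM, with a Log2FC of -4.11 (SE 0.26, adjusted p = 0.00123). C1qc, the C chain, fell from 60.2, 64.4 and 55.6 CPM to 3.24, 3.34 and 7.04 CPM, with a Log2FC of -3.73 (SE 0.36, adjusted p = 0.00504). Line 5 kept the most C1qb and C1qc. These were the only members called lower, 3 of 9, beside 1.76% of the 19836 genes tested called lower and 1.82% called in either direction, at the thresholds of an adjusted p under 0.01 and a Log2FC of at least 1 in size. Every line stood below every primary library for 17.3% of genes. DESeq2 also called each chain (adjusted p = 3.11e-177, 8.04e-50 and 1.21e-23), with 5.39% of its tested genes called lower. With the embryo as a block the fold changes held but the calls did not (adjusted p = 0.0184, 0.0272 and 0.0447 for C1qa, C1qb and C1qc), and no gene of the table was called. Fitted jointly with the Prkd3-/- libraries, whose spread was larger, the adjusted p-values were 0.496, 0.486 and 0.553.

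**Figure D1:**
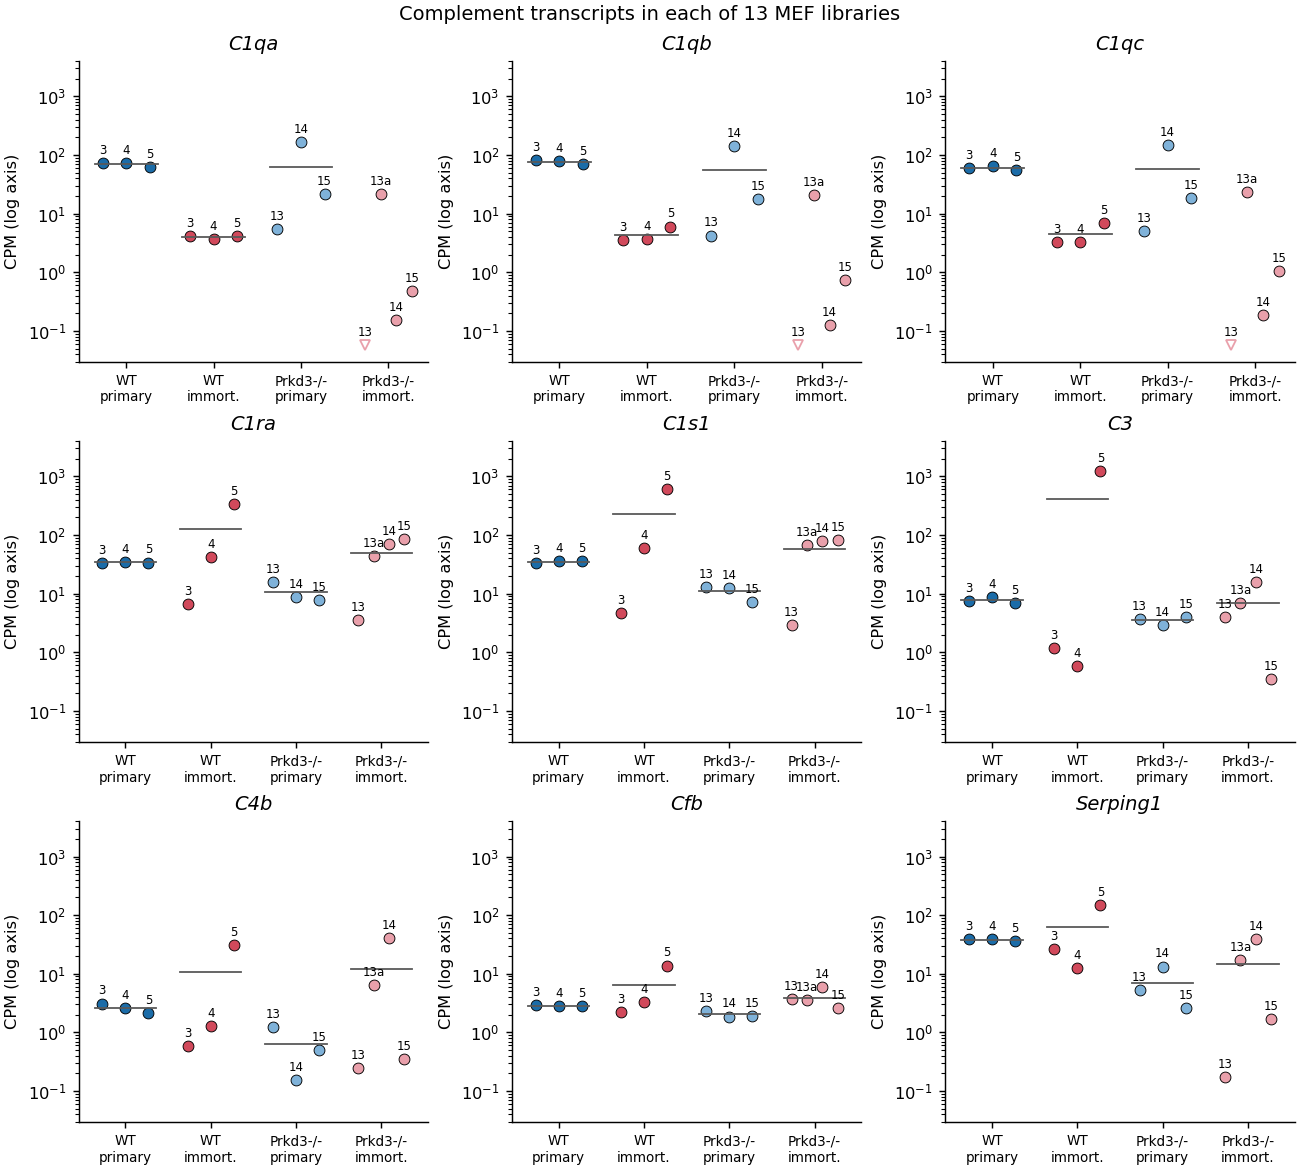
Level of each of the 9 genes in CPM on a log axis, by group, with points numbered by clone, bars at the group mean and open triangles at the 3-count level for libraries with fewer than 3 counts. The C1q chains drop in all 3 WT lines, whereas the other 6 genes scatter among lines, with WT line 5 the highest WT library for each.

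The C1q chains varied too widely among the Prkd3-/- libraries for any call. C1qa was counted at 5.46, 164 and 21.4 CPM in primary clones 13, 14 and 15. In the lines it stood at 0, 21.6, 0.156 and 0.472 CPM for 13, 13a, 14 and 15. Line 13a lay within the range of the primary cultures, and the other 3 lines below all of them. All 4 lines stood below all primary cultures for 5.27% of genes. C1qb ran from 4.24 to 144 CPM in primary cultures and stood at 0.0191, 21.0, 0.125 and 0.729 CPM in lines 13, 13a, 14 and 15. C1qc ran from 5.08 to 150 CPM in primary cultures and stood at 0, 23.6, 0.188 and 1.04 CPM in those lines. The chains therefore kept the same order of libraries, with primary clone 14 the highest and line 13 the lowest.

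Line 14 was 1048-fold below its primary culture for C1qa, a value that rests on 10 counts in the line, and line 15 was 45.3-fold below. Line 13 held 0, 1 and 0 counts of C1qa, C1qb and C1qc. Against the 3-count level of 0.0573 CPM in that library, C1qa was at least 95.4-fold lower and C1qc at least 88.8-fold lower than in primary clone 13. Line 13a went the other way, with 3.95-, 4.94- and 4.65-fold more C1qa, C1qb and C1qc than primary clone 13. The Log2FC over the genotype was -3.52 (SE 2.10) for C1qa, -3.34 (SE 2.03) for C1qb and -3.22 (SE 2.03) for C1qc, with adjusted p between 0.831 and 0.839. No gene was called in this comparison (0% of 20298 genes by edgeR, 1331 at an unadjusted p under 0.05, and 190 or 0.781% called by DESeq2, none of them a member). Without line 13a the Log2FC became -8.20, -7.54 and -7.13, and without primary clone 14 it became -1.28, -0.99 and -0.92, in neither case with a call. Leaving out both gave -5.99, -5.22 and -4.85 (adjusted p = 0.422, 0.504 and 0.703), an alternative chosen after seeing the data.

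The chains kept similar proportions in primary cultures. Per kilobase of transcript, C1qa made up 39.8% to 40.1% of C1q in WT primary cultures, C1qb 40.9% to 42.3% and C1qc 17.6% to 19.1%. The shares were 42.9% to 44.6%, 33.1% to 35.9% and 20.7% to 22.3% in Prkd3-/- primary cultures. WT line 5 and Prkd3-/- line 15 had less of their C1q as C1qa (30.0% and 27.3%) and more as C1qc (27.7% and 32.4%). Over the 13 libraries the log2 levels of the chains correlated with Pearson r between 0.994 and 0.995, a description over libraries that share states and genotypes.

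Macrophage markers moved with C1q. A list of 15 markers, among them Csf1r (the receptor for the macrophage growth factor CSF1), Cd68, Lyz2 (lysozyme), Ctss (cathepsin S) and Cx3cr1 (the fractalkine receptor), summed to between 1649 and 1664 CPM in WT primary cultures and to 59.2 to 167 CPM in WT lines. In WT, 6 of the 14 tested markers were called lower, beside 1.76% of all tested genes. All 14 had a negative Log2FC, and their median was -4.30, beside 0.04 over all tested genes. Adgre1 stayed at 55.2 CPM in WT line 5, a large part of the 167 CPM there, beside 69.3 to 73.9 CPM in WT primary cultures. Aif1 stood at 1.12 CPM in that line, above every WT primary culture (0.679 to 1.03 CPM). Neither was called. Cx3cr1 fell by 6.63 on the log2 scale (SE 0.30, adjusted p = 0.000471). The marker sum in the Prkd3-/- libraries was 188, 2030 and 422 CPM in primary clones 13, 14 and 15 and 23.1, 356, 15.3 and 25.3 CPM in lines 13, 13a, 14 and 15, so clone 14 and line 13a were the highest of their groups for both. C1q summed to 11.4 to 13.1 CPM per 100 CPM of these markers in WT primary cultures and to 10.7, 18.1 and 10.3 in WT lines 3, 4 and 5. This ratio was 7.86, 22.6 and 13.6 in Prkd3-/- primary clones 13, 14 and 15, and it was 18.6 in line 13a, but 3.07 and 8.86 in lines 14 and 15 and 0.0827 in line 13. Csf1r alone gave 16.3, 8.32 and 10.9 CPM of the marker sums of lines 13, 14 and 15. The marker sums of these lines thus rest in large part on 1 marker, which shares 15.1% of its exon bases with Hmgxb3. The ratio of line 13 also rests on 1 count of C1q. The part of macrophage content in the C1q result was not tested, and in bulk RNA fewer cells of a type and less RNA per cell cannot be told apart. Of the other cell types, 5 endothelial markers also summed lower in WT lines (0.371 to 1.99 CPM) than in WT primary cultures (10.7 to 15.7 CPM), as did 6 epithelial markers (0.177 to 0.542 against 2.36 to 2.72 CPM). The endothelial sum in WT primary cultures was mainly Kdr (4.97 to 6.29 CPM) and Tek (5.31 to 9.03 CPM). Pecam1 and Cdh5 were at most 0.392 CPM in any WT library and overlapped between states. Hepatocyte markers, from the main source of circulating complement, summed to at most 0.188 CPM in any library, and lymphocyte markers to at most 3.47 CPM, in WT line 4. Dendritic and mast cell markers summed to at most 1.47 CPM.

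**Figure D2:**
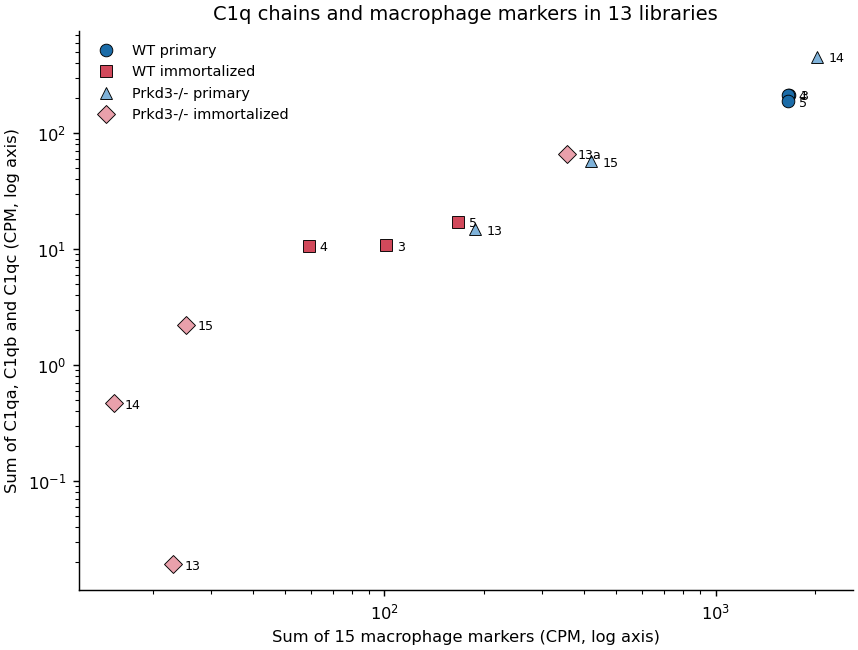
Sum of C1qa, C1qb and C1qc against the sum of 15 macrophage markers in each library, both in CPM on log axes, with points numbered by clone and symbols by group. WT primary cultures sit together between 1649 and 1664 CPM of markers, line 13a lies beside primary clone 15, and the point for Prkd3-/- line 13 rests on 1 count of C1q.

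The C1 proteases did not follow C1q. C1ra, the zymogen that activates C1s, was counted at 34.0, 35.3 and 34.1 CPM in WT primary clones 3, 4 and 5. In the lines it stood at 6.80, 41.8 and 333 CPM, so that line 3 was below its primary culture, line 4 was 1.19-fold above and line 5 was 9.77-fold above. C1s1, which cleaves C4 and C2, stood at 33.7, 35.5 and 35.7 CPM in primary cultures and at 4.67, 59.9 and 617 CPM in the lines. The lines thus fell on either side of the primary cultures for both proteases, in the same order. The Log2FC was 1.88 for C1ra (SE 1.25, adjusted p = 0.470) and 2.70 for C1s1 (SE 1.51, adjusted p = 0.395), neither called. Line 5 decided both signs: without it the Log2FC was -0.50 for C1ra and -0.11 for C1s1.

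Of the Prkd3-/- lines, 3 of 4 were above every primary culture for both proteases. C1ra stood at 15.9, 8.94 and 7.83 CPM in primary clones 13, 14 and 15 and at 3.51, 43.8, 69.4 and 84.7 CPM in lines 13, 13a, 14 and 15. C1s1 stood at 13.1, 12.6 and 7.24 CPM in primary clones and at 2.96, 68.7, 79.6 and 81.1 CPM in those lines. Line 13 was the exception, 4.52-fold below its primary culture for C1ra and 4.43-fold below for C1s1. Neither Log2FC was called (2.21, SE 0.91, adjusted p = 0.741 for C1ra, and 2.40, SE 0.95, adjusted p = 0.730 for C1s1). Leaving out primary clone 13 and line 13 but keeping line 13a, chosen after seeing the data, gave 2.96 (SE 0.37) and 2.94 (SE 0.33), still not called (adjusted p = 0.604 for both).

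The proteases tracked each other over 13 libraries (r = 0.988), and neither tracked a C1q chain (r between 0.05 and 0.17). The ratio of C1s1 to C1ra per kilobase ran from 0.655 in WT line 3 to 1.77 in WT line 5. C1s1 shares 18.4% of its exon bases with Gm16567 on the opposite strand, and since WT pairs were counted without strand and for every gene they overlapped, those reads went to both. Near-identical copies also exist. Of the 100-base windows of the longest C1ra transcript, 34.5% occur in C1rb, and 7.9% of those of C1s1 occur in C1s2. Per the paper WT counts used uniquely mapped reads only, so pairs that fit a gene and its copy equally counted for neither. C1rb and C1s2 were counted at no more than 5.81 and 6.19 CPM in any library, both in WT line 5.

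Set against each other per length, C1q made up most of the C1 transcripts of primary cultures and little of those of most lines. The share of the C1q chains in the sum of C1q, C1ra and C1s1 (CPM per kilobase) was 88.9%, 88.3% and 87.1% in WT primary clones 3, 4 and 5, with a mean of 88.1% ± 0.919 (SD, n = 3). It was 70.1%, 20.7% and 4.08% in the WT lines (mean 31.6% ± 34.3, SD, n = 3), below every primary culture but spread over most of the scale. In the Prkd3-/- primary clones 13, 14 and 15 it was 55.3%, 98.1% and 90.3% (mean 81.3% ± 22.8, SD, n = 3). In lines 13, 13a, 14 and 15 it was 0.819%, 58.8%, 0.739% and 2.97% (mean 15.8% ± 28.6, SD, n = 4). The share of line 13 rested on 1 count of C1q. Line 13a, at 58.8%, was above primary clone 13, so these groups overlapped by 1 library each.

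**Figure D3:**
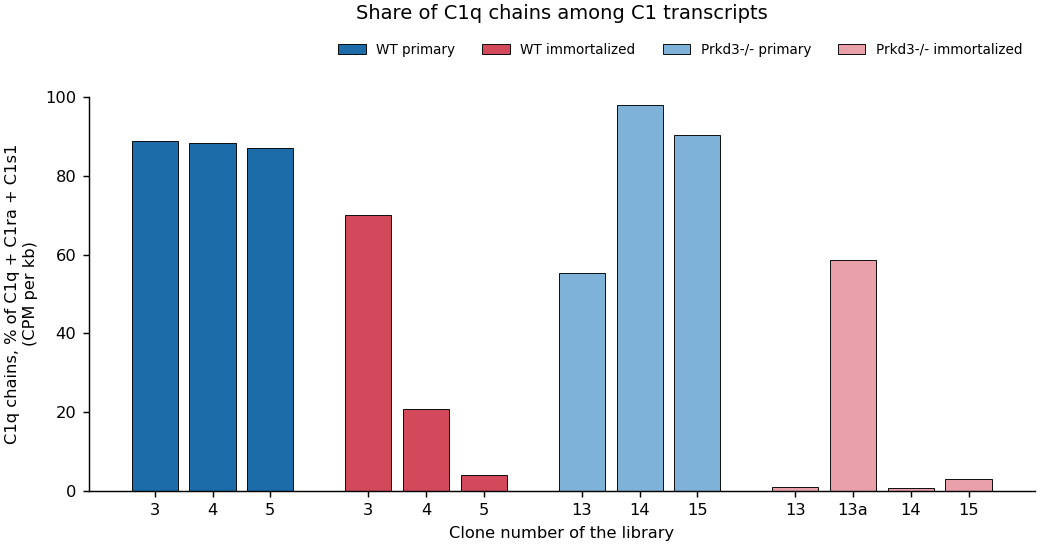
Share of the C1q chains in the summed C1qa, C1qb, C1qc, C1ra and C1s1 level (CPM per kilobase, in percent) for each library, with bars coloured by group and numbered by clone. All WT primary cultures lie near 88.1%, the WT lines between 4.08% and 70.1%, and Prkd3-/- lines other than 13a under 3%.

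Among WT lines C3 spread 2077-fold from the lowest to the highest, the widest of the 9 genes, and C4b 51.6-fold, less than C1s1 (132-fold). C3, the central protein of all complement pathways, was counted at 7.45, 8.65 and 6.92 CPM in WT primary clones 3, 4 and 5 and at 1.18, 0.593 and 1231 CPM in the lines. Lines 3 and 4 were 6.34- and 14.6-fold below their primary cultures, and line 5 was 178-fold above. C4b, which encodes complement C4, stood at 3.11, 2.66 and 2.15 CPM in primary cultures and at 0.596, 1.30 and 30.8 CPM in the lines. Line 5 again stood alone on the high side. The Log2FC was 5.74 for C3 (SE 2.82, adjusted p = 0.338) and 2.04 for C4b (SE 1.44, adjusted p = 0.495), neither called, and DESeq2 gave no adjusted p for either. Without line 5, C3 was called lower (Log2FC -3.11, adjusted p = 0.00925) and C4b had a Log2FC of -1.47 (adjusted p = 0.0863). With the embryo as a block the Log2FC was -1.44 for C3 and -0.18 for C4b, neither called.

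Prkd3-/- libraries held C3 at 3.77, 2.94 and 4.04 CPM in primary clones 13, 14 and 15 and at 4.03, 6.92, 16.0 and 0.351 CPM in lines 13, 13a, 14 and 15. Line 14 was 5.45-fold above its primary culture and line 15 was 11.5-fold below. C4b stood at 1.26, 0.157 and 0.505 CPM in primary clones and at 0.248, 6.43, 40.5 and 0.351 CPM in those lines, with line 14 at 258-fold its primary culture, which held 17 counts. Line 14 was the highest for both genes and line 15 was low for both. The Log2FC was 0.93 for C3 (SE 0.98, adjusted p = 0.881) and 4.22 for C4b (SE 1.91, adjusted p = 0.782). No Prkd3-/- line came near the C3 level of WT line 5. Of the 100-base windows of the longest C4b transcript, 16.5% occur in its copy C4a, which was counted at no more than 1.55 CPM in any library. The limit to uniquely mapped reads in WT holds for this pair too.

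**Figure D4:**
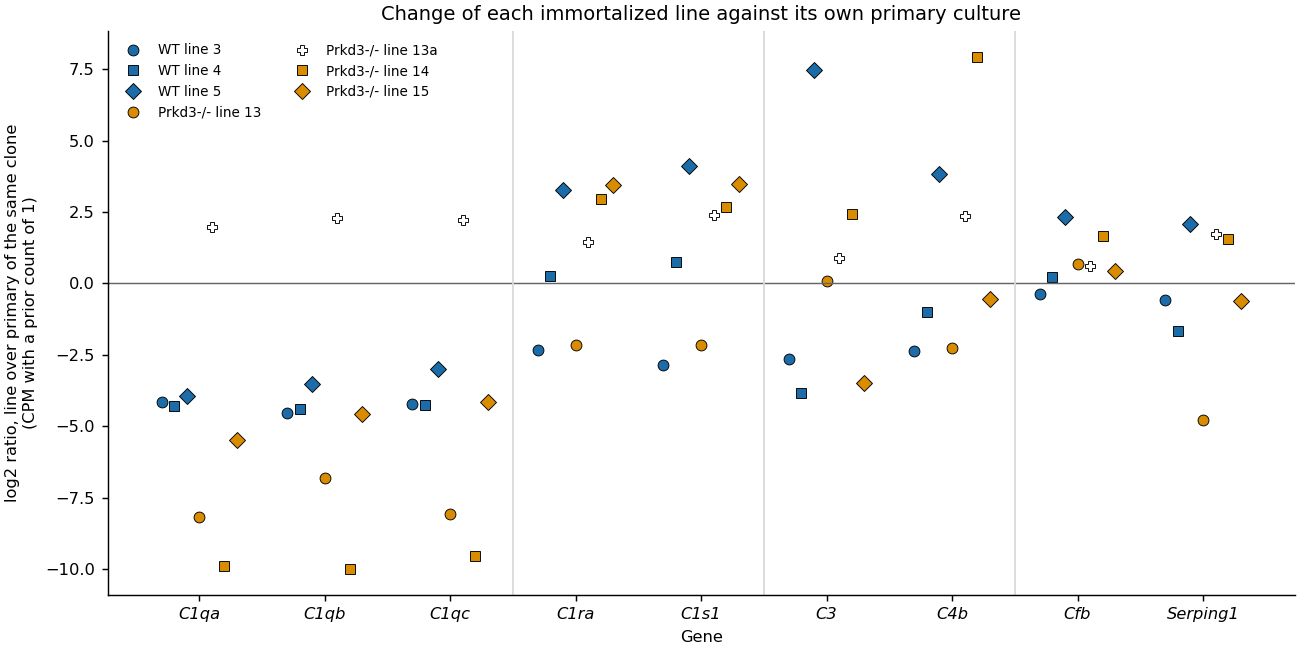
Log2 ratio of each immortalized line to the primary culture of the same clone number for the 9 genes (CPM with a prior count of 1), with symbols by line and colours by genotype, and line 13a set against primary clone 13. The C1q ratios are negative in 6 of 7 lines and positive in line 13a, while the other genes take both signs except Cfb in Prkd3-/- lines; ratios of line 13 for C1q depend on the prior count.

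Factor B and the C1 inhibitor were not called in either genotype. Cfb stood at 2.88, 2.79 and 2.77 CPM in WT primary clones 3, 4 and 5 and at 2.22, 3.28 and 13.8 CPM in the lines (Log2FC 1.20, SE 0.70, adjusted p = 0.416). Without line 5 the Log2FC was -0.03. In the Prkd3-/- libraries all 4 lines (3.68, 3.55, 5.93 and 2.59 CPM for 13, 13a, 14 and 15) were above all 3 primary cultures (2.31, 1.87 and 1.91 CPM), the only member for which the states there did not overlap, as was so for 4.22% of genes. The Log2FC was 0.95 (SE 0.36, adjusted p = 0.711), not called. Cfb shares 79.5% of its exon bases with Gm20547, a locus that also takes in exons of C2, whose reads cannot be told apart there.

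Serping1 stood at 39.4, 38.9 and 35.6 CPM in WT primary clones 3, 4 and 5 and at 26.1, 12.4 and 150 CPM in the lines. Lines 3 and 4 were 1.51- and 3.15-fold below their primary cultures and line 5 was 4.22-fold above (Log2FC 0.73, SE 0.89, adjusted p = 0.705). Without line 5 the Log2FC was -0.98 (adjusted p = 0.134). Among Prkd3-/- libraries it stood at 5.26, 13.3 and 2.64 CPM in primary clones 13, 14 and 15 and at 0.172, 17.4, 39.1 and 1.71 CPM in lines 13, 13a, 14 and 15 (Log2FC 1.04, SE 1.45, adjusted p = 0.903). Line 13, with 9 counts, was 30.6-fold below its primary culture, the low end of all 13 libraries for this gene. Serping1 was the non-C1q member whose levels came closest to those of the C1q chains (r between 0.54 and 0.57), and Cfb the furthest (r between -0.36 and -0.31).

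WT line 5 was thus the highest WT library for C1ra, C1s1, C3, C4b, Cfb and Serping1. None of these 6 genes was called higher in WT, beside 0.0605% of genes called higher, and for none did the lines all stand above the primary cultures, as was so for 14% of genes. Saa3, an acute-phase transcript and the most abundant per length of 20 interferon and NF-kB responsive genes listed, was at 2287 CPM in that line and at no more than 0.169 CPM in the other 12 libraries. It did not pass the filter on low counts.

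Levels were also ordered per kilobase. In WT primary cultures it ran from C1qb and C1qa (70.1 and 67.4 CPM per kb, with overlapping ranges) through C1qc (31.1), Serping1 (16.3), C1ra and C1s1 (11.6 and 11.2, overlapping only at their nearest values) to C3 (1.49), Cfb (0.996) and C4b (0.463). Apart from those 2 pairs, neighbours in that order did not overlap. In WT lines the means ran from C3 (79.9), C1s1 (72.7), C1ra (42.6) and Serping1 (27.1) to C1qb (4.05), C1qa (3.81), C1qc (2.35), Cfb (2.28) and C4b (1.91), and the ranges of neighbouring genes overlapped throughout. Line 5 alone put C3 first, and it was also the highest WT line for C1s1, C1ra and Serping1. C3 stood at 239 CPM per kb in line 5 but at 0.229 and 0.115 in lines 3 and 4, where it was among the lowest 2 members. In line 3 C1ra (2.28) and C1s1 (1.49) lay below C1qa (3.95) and C1qb (3.21), whereas in line 4 both proteases (C1s1 at 19.1) lay above them (3.55 and 3.39).

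An interaction term over 13 libraries asked whether the genotypes changed unequally. No member passed, and no gene was called (0% of 21197 genes at an adjusted p under 0.05, 841 at an unadjusted p under 0.05, and 37 or 0.123% by DESeq2). The Prkd3-/- change minus the WT change was 0.63 (SE 2.33) for C1qa and -0.30 (SE 1.73) for C1s1, and it was furthest from 0 for C3 at -4.81 (SE 2.63), each with an adjusted p of 1.00. The SE of this difference ran from 0.77 for Cfb to 2.63 for C3.

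In primary cultures alone, C1ra, C1s1, C3, C4b, Cfb and Serping1 were each lower in all 3 Prkd3-/- clones than in all 3 WT clones, as were 18.4% of genes. The largest difference was in Serping1, with a Log2FC of -2.42 (SE 1.42), followed by C4b at -2.04 (SE 1.78), C1s1 at -1.67 (SE 1.30) and C1ra at -1.66 (SE 1.16). None was called (each adjusted p = 0.997, beside 0.17% of genes called). Fitted on the 6 primary libraries alone, where the spread is smaller, the adjusted p-values were 0.0150 for C1s1, 0.0216 for C3 and 0.0240 for C1ra, short of the threshold that 0.765% of genes passed. The C1q chains overlapped between genotypes. The genotypes were deposited in separate tables, so genotype and whatever else differed between those tables cannot be told apart.

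Other genes of the pathway were counted from lists of 11 initiation, 4 C2-C4 and alternative, 7 terminal, 15 regulator and 11 receptor genes. In WT the receptors held the most calls, with 4 of 9 tested called lower, none higher and a median Log2FC of -3.51. Of all genes tested in WT, 1.76% were called lower. C5ar1, the receptor for C5a, went from 46.0 to 51.2 CPM in primary cultures to 1.24 to 1.79 CPM in lines (Log2FC -4.92, SE 0.19, adjusted p = 0.000300). The other 3 were C5ar2, a related C5a receptor (-5.20, adjusted p = 0.00875), Itgam, the alpha chain of complement receptor CR3 (-4.70, adjusted p = 0.00289), and Cd93, a glycoprotein of myeloid and endothelial cells (-3.51, adjusted p = 0.00646). Itgam shares 68.7% of its exon bases with Gm49368. These are also genes of myeloid cells, and the macrophage marker sums given above moved with them. Calr (calreticulin), the receptor list's most abundant gene per length, had a Log2FC of -0.21 and was not called.

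Of the 7 initiation genes tested in WT, 1 was called lower, beside 1.76% of all tested genes. This was Fcna (ficolin A), which initiates the lectin pathway, at 2.26 to 2.59 CPM in primary cultures and 0.102 to 0.122 CPM in lines (Log2FC -4.40, SE 0.23, adjusted p = 0.000631). Colec12, a membrane collectin, was the most abundant of that list and not called (Log2FC 0.20). None of the 3 tested C2-C4 and alternative genes passed. Cfp (properdin), which stabilizes the alternative pathway enzyme, came nearest at a Log2FC of -3.33 (SE 0.47, adjusted p = 0.0173). Only C8g of the 7 terminal genes was tested, and it was not called (Log2FC 0.06). None of the 10 regulators tested was called, with a median Log2FC of -0.16, and Cd59a, which blocks the terminal complex and was the most abundant per length, had a Log2FC of 0.86. None of the 17 tested relatives with a C1q domain was called either (median -0.10). Col8a1, the most abundant of these, had a Log2FC of -0.11, and none of 18 interferon and NF-kB responsive genes was called (median -0.36). In the Prkd3-/- libraries no gene of any list was called.

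The genes whose log2 levels were most like each member over 13 libraries were found among 21197 tested genes, and the correlations are descriptions. For the mean of the C1q chains they were Gm49339 (r = 0.995), Lilrb4a (r = 0.994) and Mpeg1 (r = 0.993), of which Gm49339 shares 92.8% of its exon bases with Lilrb4a. C1ra was most like C1s1 (r = 0.988), Gm16567 (r = 0.988) and Fbxo7 (r = 0.937), and C1s1 most like Gm16567 (r = 0.9995), C1ra and C1s2 (r = 0.955). C3 was most like Gm20547 (r = 0.908), Coil (r = 0.894) and 4930505N22Rik (r = 0.891). C4b was most like E130102H24Rik (r = 0.942), Csad (r = 0.905) and Mocs1 (r = 0.904). Cfb was most like Gm20547 (r = 0.937), with which it shares exons, Tex2 (r = 0.917) and Sod2 (r = 0.900), and Serping1 most like Gm47126 (r = 0.965), Hpse (r = 0.957) and B4galt4 (r = 0.950).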

How the data were processed

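Poly-A RNA-seq of 13 MEF libraries was analysed. The authors deposited raw counts per gene in 2 tables, WT and Prkd3-/-, without normalization. For WT the authors mapped read pairs to mm10 with STAR 2.7.10a, used SAMtools 1.18 and counted Ensembl genes with featureCounts (Subread 2.0.6), without strand and to every gene overlapped. The submitters' processing notes list the same tools and FastQC 0.12.0 for the Prkd3-/- table, and its counting options are not given in the sources used here. Of the 55487 gene IDs, 99.4% matched a symbol.

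Each genotype was fitted with edgeR 4.0.16 in R 4.3.3 (quasi-likelihood, TMM, filterByExpr, robust), and calls needed an adjusted p under 0.01 and a Log2FC of at least 1 in size (interaction, adjusted p under 0.05). The SE is the size of the Log2FC divided by the square root of F. Printed CPM use TMM over 13 libraries. DESeq2 1.42.0, limma 3.58.1, other scalings, filters and thresholds, and each library left out in turn were the alternatives. Scripts were tested on simulated data. Members and lists were chosen with earlier results of these data known. Named genes are the members, Prkd3, and per list those called (up to 5 by p) and the most abundant per length. Further marker genes are named where they carried a marker sum or did not move with it. Per the paper, clone numbers pair WT states by embryo, and the deviations of same-numbered WT libraries from their group means correlated at -0.033, 0.023 and -0.037. Clone numbers alone pair the Prkd3-/- libraries (0.145, -0.282 for 13a, 0.074 and 0.043). No 2 replicates agreed within sampling noise. Promoter windows are from RefSeq (GRCm38.p6), and 5 of 9 members matched. Transcript comparisons used GENCODE M21 in Python.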

Additional observations from a re-analysis of the deposited data

Results flagged for a closer look

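In the 4 Prkd3-/- lines, a library far from the other 3 was seen for 5 members, by a gap between it and its neighbour that exceeded Dixon's 95% critical value for 4 samples. The gap was taken on CPM without logs, where levels spread widely, so no chance rate is given for these flags. Line 13a was high for the C1q chains, with 21.6 CPM of C1qa (next highest 0.472), 21.0 CPM of C1qb (next 0.729) and 23.6 CPM of C1qc (next 1.04). The chains are not independent of each other, and the macrophage marker sum in that line was 356 CPM, beside 15.3 to 25.3 CPM in the others. Line 13 was low for C1s1, at 2.96 CPM with the next lowest at 68.7. Line 14 was high for C4b, at 40.5 CPM with the next highest at 6.43. What set these lines apart was not tested. Groups of 3 libraries lay outside this screen. Among them, WT line 5 also stood far off for C3, at 1231 CPM beside 1.18 and 0.593 CPM in lines 3 and 4.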

How the results depend on the processing

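The WT comparison called 361 genes, and 1361 by DESeq2, 157 with at least 10 counts in every library, 184 by limma, 868 at an adjusted p under 0.05, 0 with the embryo as a replicate block and 0 in the joint fit (48 to 743 leaving out each library in turn, lowest without primary clone 3 and highest without line 5). C1qa was called in 6 of 6 such fits (Log2FC -4.21 to -4.09), C1qb in 3 and C1qc in 2. The block changed no other call of a member. In the Prkd3-/- comparison DESeq2 called 190 genes and the joint fit 1, in the interaction DESeq2 called 37 and leaving out libraries 0 to 2, and between genotypes in primary cultures 36 genes were called, 152 by DESeq2, 156 on the 6 primary libraries and 13 to 45 leaving out each library. The C1q share in WT primary cultures was 74.8% without division by length and 85.3% for C1qa against C1ra. In Prkd3-/- primary clone 13 these shares were 33.8% and 49.6%, beside 55.3% per length. In primary clones 14 and 15 they were at least 79.2%. The cause of these shifts was not tested.

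Signs of uncalled values turned as follows. In WT, limma gave -0.0389 for Serping1, and the block -1.44 for C3, -0.18 for C4b and -0.13 for Serping1. Leaving out libraries gave -0.50 to 2.44 for C1ra, -0.11 to 3.28 for C1s1, -3.11 to 6.33 for C3, -1.47 to 2.60 for C4b, -0.0290 to 1.61 for Cfb and -0.98 to 1.22 for Serping1, each lowest without line 5. In Prkd3-/-, limma gave -0.0270 for C3 and -0.67 for Serping1, and leaving out libraries -0.14 to 1.89 for Serping1. In the interaction, limma gave -1.88, -1.18 and -1.67 for C1qa, C1qb and C1qc, 0.98 for C1s1, 0.13 for Cfb and -0.60 for Serping1, and the block -1.07, -0.30 and -0.25 for the chains, 1.66 for C1s1, 1.66 for C3 and 0.19 for Cfb. Leaving out libraries there gave -4.03 to 2.87 for C1qa, -3.39 to 3.13 for C1qb, -3.37 to 2.81 for C1qc, -0.26 to 2.71 for C1ra, -0.89 to 2.51 for C1s1, -5.67 to 4.03 for C3, -0.17 to 5.69 for C4b, -0.67 to 0.97 for Cfb and -0.87 to 2.01 for Serping1. Between genotypes in primary cultures it gave -2.39 to 0.41 for C1qa, -2.82 to 0.0810 for C1qb and -2.36 to 0.49 for C1qc. Low counts limit the folds for C1q in Prkd3-/- lines 13 and 14 (at most 1 and 12 counts per chain), C4b in line 13 (13 counts) and in primary clones 14 and 15 (17 and 18), and Serping1 in line 13 (9), and 3 or 4 libraries per group limited the tests.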
